A study of Mus musculus with 12 samples.

Results

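The transcripts of 46 genes of the cell cycle and of DNA replication were followed in mouse liver across genotype and diet. The 46 genes are a named list, found on the arrays through 72 probes that carry the gene's symbol or an older one, and each is described by its brightest probe. Cdk1 was the 1 gene found under an older name, Cdc2a. They are 46 of 27668 genes or transcripts with values. Of these, 17043 were bright enough to be tested, 45 of the 46 among them.

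Livers came from 12 male C57BL/6 mice, and total RNA of each was hybridised to 1 single-colour Agilent array. The mice were SIRT1+/+ (WT) or SIRT1+/- (Het, with 1 intact copy of the gene for the NAD-dependent deacetylase SIRT1), and ate low-fat or high-fat food for 34 weeks. Each of the 4 groups held 3 mice, so n = 3 in every group below. How the Het allele was made and the age at the start of the diet are not given in the sources used here. Whole liver holds hepatocytes, macrophages, stellate, endothelial, bile duct and blood cells together.

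Cells that divide pass through ordered steps, and many of the genes that drive a step are transcribed mainly around it. E2F factors switch on the genes of DNA synthesis as a cell leaves G1. The DREAM and FOXM1-MYBL2 complexes, which bind CHR elements, time the genes of mitosis. Hepatocytes of the adult liver are mostly quiescent, many are polyploid, and they re-enter the cycle after injury or loss of tissue.

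A level below is the log2 of a probe's processed intensity minus that of the 75th percentile of its array, so 0 is the 75th percentile, and 1 unit is a doubling. Levels of different genes are not set against each other, since probes differ in brightness. Sirt1 itself was lower in Het livers on both of its probes. On the brighter one it lay at 0.03 ± 0.17 (SD) in WT and -0.41 ± 0.20 in Het mice on low-fat food, and at -0.27 ± 0.10 and -0.71 ± 0.03 on high-fat food. That is 74.0% and 73.6% of the WT level, with p = 0.1 in an exact two-sided permutation test on each diet, the smallest value that 3 mice against 3 can give. Markers of hepatocytes were bright, their summed level running from 849 to 1262 times the 75th percentile over the 12 arrays. By the scanner software's own test 58.0% to 71.6% of an array's spots were well above background, and precision is limited by the number of arrays. The 6 high-fat arrays were scanned on 1 day on slides 1 and 2, and the 6 low-fat arrays on another day on slides 3 and 4. Diet, scan day and slide cannot be told apart wherever diets are compared. On slide 2 all 3 Het high-fat arrays lay together with the third WT high-fat array, and on slide 3 all 3 WT low-fat arrays with the first Het low-fat array.

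Promoters are printed for 5 members as examples, 4 that act at mitosis (Cdk1, Cdc20, Cdkn3, Aurka) and 1 that licenses replication origins (Mcm6). Each is the RefSeq window on GRCm38.p6 from 250 bases before to 50 bases after the transcription start, read 5′ to 3′ on the gene's strand. Capitals mark CCAAT boxes (CCAAT, or ATTGG on the other strand), the CHR element (TTTGAA or TTCAAA) and 8-base E2F-type matches. The windows are chr10:69352863-69353162 (minus strand) for Cdk1, chr4:118437294-118437593 (minus) for Cdc20, chr14:46760291-46760590 (plus) for Cdkn3, chr2:172370521-172370820 (minus) for Aurka and chr1:128359656-128359955 (minus) for Mcm6.
Cdk1: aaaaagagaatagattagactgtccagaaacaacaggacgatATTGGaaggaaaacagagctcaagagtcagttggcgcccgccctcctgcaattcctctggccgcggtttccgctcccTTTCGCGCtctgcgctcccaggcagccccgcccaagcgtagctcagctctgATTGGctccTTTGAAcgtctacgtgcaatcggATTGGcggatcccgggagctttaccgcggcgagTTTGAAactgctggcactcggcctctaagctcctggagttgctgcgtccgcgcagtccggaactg
Cdc20: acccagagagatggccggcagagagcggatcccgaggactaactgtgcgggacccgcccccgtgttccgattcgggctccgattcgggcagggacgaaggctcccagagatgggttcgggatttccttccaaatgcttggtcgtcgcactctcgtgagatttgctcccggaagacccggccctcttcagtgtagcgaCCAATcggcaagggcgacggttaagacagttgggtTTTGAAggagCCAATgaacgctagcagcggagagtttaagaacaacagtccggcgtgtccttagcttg
Cdkn3: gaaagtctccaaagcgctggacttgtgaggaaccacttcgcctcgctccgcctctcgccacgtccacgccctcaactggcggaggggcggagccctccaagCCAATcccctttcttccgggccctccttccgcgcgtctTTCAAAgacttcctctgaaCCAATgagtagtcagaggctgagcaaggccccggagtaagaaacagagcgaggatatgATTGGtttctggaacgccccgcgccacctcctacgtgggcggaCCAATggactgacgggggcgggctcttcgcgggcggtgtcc
Aurka: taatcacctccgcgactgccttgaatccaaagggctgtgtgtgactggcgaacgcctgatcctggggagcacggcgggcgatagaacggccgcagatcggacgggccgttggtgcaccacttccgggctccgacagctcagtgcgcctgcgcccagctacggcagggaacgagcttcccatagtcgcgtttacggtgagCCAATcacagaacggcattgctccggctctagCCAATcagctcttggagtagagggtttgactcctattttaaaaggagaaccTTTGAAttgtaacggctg
Mcm6: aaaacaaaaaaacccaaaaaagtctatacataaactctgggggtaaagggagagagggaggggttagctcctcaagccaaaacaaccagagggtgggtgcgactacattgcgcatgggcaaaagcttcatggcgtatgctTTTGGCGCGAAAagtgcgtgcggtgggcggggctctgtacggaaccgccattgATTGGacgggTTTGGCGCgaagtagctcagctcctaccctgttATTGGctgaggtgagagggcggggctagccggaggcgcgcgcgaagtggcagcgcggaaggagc

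The Cdk1 window holds TTTGAA at -71 and -15, counted from the start to the motif's first base on the printed strand, 3 CCAAT boxes and the E2F-type TTTCGCGC at -131. In Cdc20 the CHR lies at -18 between CCAAT boxes at -53 and -8, in Cdkn3 at -111 on the other strand, and in Aurka at 33, after CCAAT boxes at -51 and -19. Mcm6 has no TTTGAA in this window and holds TTTGGCGC at -110 and -47, the first of them overlapping TTTCGCGC on the other strand.

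Windows were found for 37 of the 46 members, and all motifs were searched on both strands. TTTGAA was present in 18 of the 37 (48.6%), against 20.2% of 27025 genes with a window, and CCAAT in 27 (73.0%), against 41.1%. The related letters TTCGAA and TTTAAA, each its own reverse complement, were in 10.8% and 24.3% of members and in 1.80% and 14.9% of all genes. Any of TTTGGCGC, TTTCCCGC, TTTCGCGC, TTTGCCGC, TTTGGCGG, TTTCCCGG and GGCGGGAA, which can overlap one another and GGGCGG, was in 11 (29.7%), against 6.31%. The SP1-type GGGCGG was in 30 (81.1%), against 38.2%. Of 23 members with mitotic or checkpoint roles, 17 held TTTGAA and CCAAT together (73.9%, against 8.97% of all genes) and 4 an E2F-type match (Birc5, Cdk1, Chek1, Melk). Of 14 with G1/S or replication roles, 1 held TTTGAA and 7 an E2F-type match (Cdc6, Cdt1, Mcm3, Mcm5, Mcm6, Mcm7, Rrm1). CCAAT was in 19 of the 23 and 8 of the 14, and GGGCGG in 19 and 11. The window of Nusap1, a member of the spindle, held none of these motifs, unlike the printed ones. A match is a run of letters, not a shown binding site.

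Diet separated these genes, and genotype did not at the threshold used. In Het livers 22 of the 45 tested members rose on high-fat food and 0 fell at an adjusted p under 0.05 in limma. Of all genes tested 15.8% were called there, 7.60% higher and 8.25% lower. In WT livers 3 members rose and 0 fell, where 5.89% of all genes were called, 2.72% higher and 3.16% lower. Over both genotypes 24 rose and 0 fell, where 30.2% of all genes were called, 13.4% higher and 16.7% lower. Over all 46 members the median log2 difference with diet was 1.03 in Het, 0.45 in WT and 0.77 over both, while over all genes tested it was 0.00, -0.05 and -0.03. In bulk RNA, more cells in cycle and more transcript per cycling cell cannot be told apart.

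**Figure D1:**
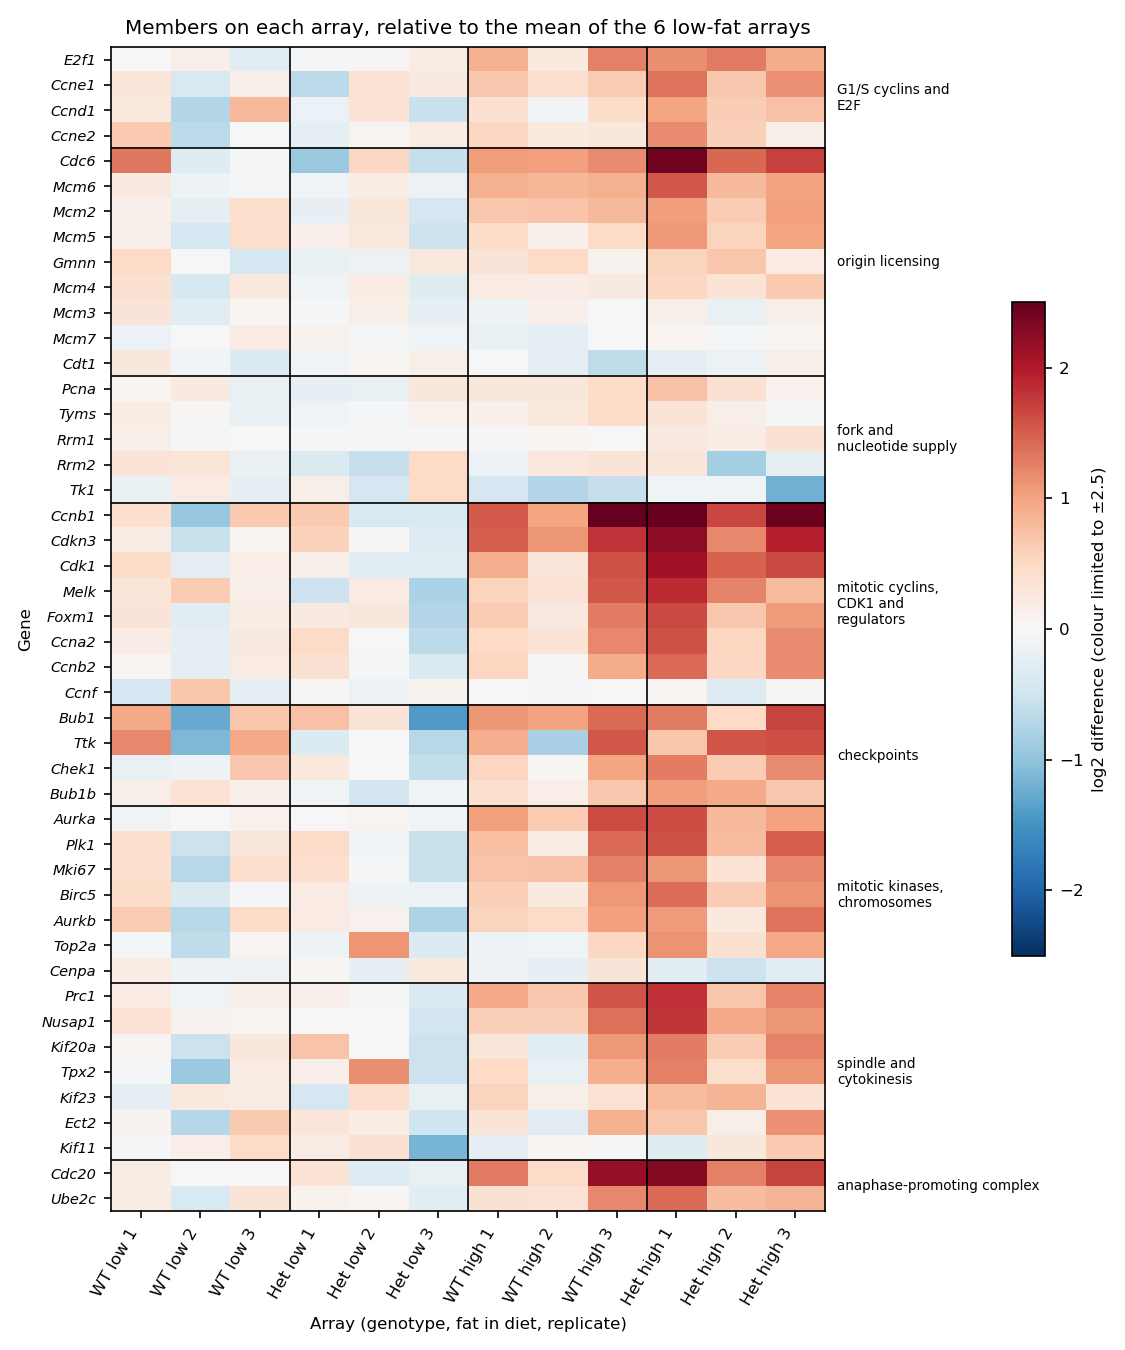
Log2 difference of each of the 46 members (rows, grouped by role) on each of the 12 arrays (columns, by group) from its mean over the 6 low-fat arrays, with colour limited to ±2.5. The high-fat columns are mostly red, most of all in the blocks of mitotic cyclins and CDK1, checkpoints and the anaphase-promoting complex, while the block of fork and nucleotide supply stays pale.

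The rise was not even over the mice. Taking each member's difference from its mean over the 6 low-fat arrays, the median over the 46 was 1.15, 0.63 and 1.01 on the 3 Het high-fat arrays. It was 0.52, 0.24 and 0.90 on the 3 WT high-fat arrays, so WT replicate 3 lay within the range of the Het mice. Low-fat arrays gave 0.19, -0.23 and 0.16 in WT and 0.04, 0.02 and -0.31 in Het. All 6 high-fat medians lay above all 6 low-fat ones, and the same median over all genes tested ran only from -0.08 to 0.04. Among the 6 high-fat mice, Het replicate 1 was the highest for 29 members and WT replicate 2 the lowest for 28.

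**Figure D2:**
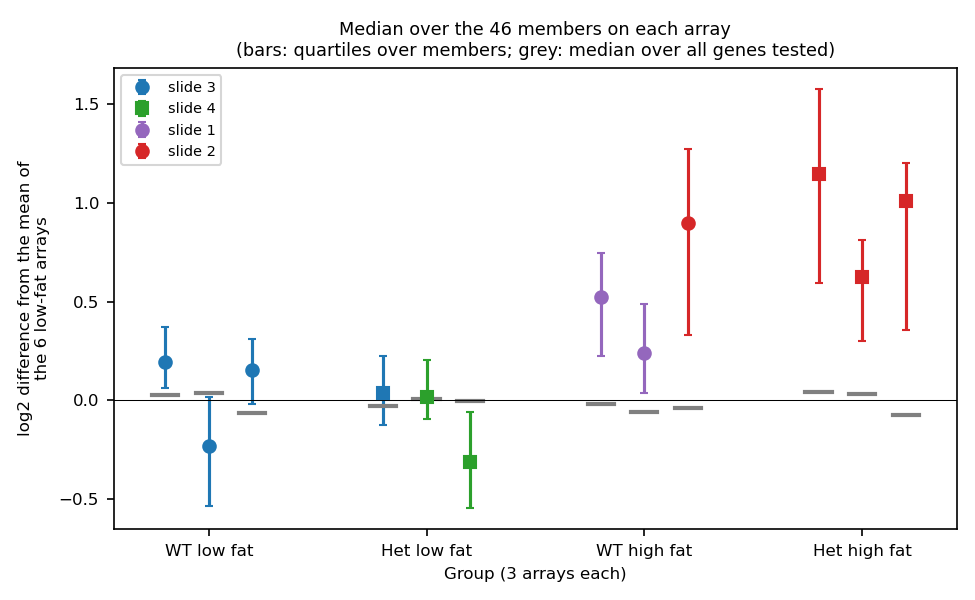
Median over the 46 members of the log2 difference from the mean of the 6 low-fat arrays (vertical axis), by group (horizontal axis, 3 arrays each); bars span the quartiles over members, grey ticks give the median over all genes tested, and colours give the slide. High-fat arrays run from 0.24 to 1.15 and low-fat arrays from -0.31 to 0.19, and the WT high-fat array on slide 2 (0.90) lies among the Het arrays of that slide.

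Calls in Het rested in part on single mice. Without Het high-fat replicate 1 the count in Het was 5, and without Het low-fat replicate 3 it was 12. In WT it was 0 without high-fat replicate 1 or 3, or without any 1 of the 3 low-fat replicates. Cdk1, Mcm6, Bub1b, Cdkn3 and Nusap1 remained called in Het whichever single array was left out, and the other Het calls were lost without Het high-fat replicate 1. Over both genotypes 20 of the 24 calls remained in all 12 such fits. Mcm5 and Chek1 remained in 7 of 12 (highest adjusted p 0.069 and 0.062), and leaving out Het low-fat replicate 3, Het high-fat replicate 1 or replicate 1 or 3 of the WT high-fat group ended both calls. Mcm5 was lost also without Het high-fat replicate 3, and Chek1 without WT low-fat replicate 1. Mki67 remained in 10, lost without WT high-fat replicate 3 or Het high-fat replicate 1 (adjusted p up to 0.054). Kif23 remained in 4, those without replicate 2 of a WT group, Het high-fat replicate 3 or Het low-fat replicate 2 (highest adjusted p 0.089). Of the 45 tested members, 40 were well above background on all arrays of a low-fat group and 5 passed only through a high-fat group (Aurkb, Bub1, Ccnb1, Cdc6 and Chek1). The 40 gave 19 of the 22 calls in Het, all 3 in WT and 21 of 24 over both. With no filter on dim probes all 46 were tested and 13 rose in Het, 0 in WT and 21 over both, where 2.03%, 0.260% and 5.67% of 27668 genes did.

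Of the 4 G1/S cyclins and E2F members, E2f1 and Ccne1 rose in Het and 0 passed in WT. E2f1 encodes the transcription factor that activates the genes of S phase. Its levels were -1.80, -1.65 and -2.05 in WT mice on low-fat food and -0.89, -1.54 and -0.52 on high-fat food. In Het mice they were -1.83, -1.75 and -1.59 on low-fat and -0.61, -0.49 and -0.84 on high-fat food. All 6 high-fat mice lay above all 6 low-fat mice. The difference was 1.08 ± 0.23 (SE) in Het (adjusted p = 0.013), a 2.12-fold rise, and 0.84 ± 0.23 in WT (adjusted p = 0.054). Without Het high-fat replicate 1 the Het call was lost (adjusted p = 0.051).

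Ccne1 encodes cyclin E1, the partner of CDK2 at the G1/S boundary. It rose by 1.08 ± 0.28 in Het (adjusted p = 0.029), with 0.55 ± 0.28 in WT (adjusted p = 0.25). A dimmer second probe of Ccne1 gave 1.11 in Het and, with the other sign, -0.30 in WT. Ccne2 did not pass, at 0.64 in Het and 0.34 in WT. Ccnd1 encodes cyclin D1, which links growth signals to the start of the cycle in hepatocytes. Its 3 Het high-fat mice (1.99, 1.62, 1.75) lay above the 3 Het low-fat mice (0.87, 1.34, 0.45), yet the difference of 0.90 ± 0.35 did not pass (adjusted p = 0.10). WT mice overlapped, with 0.14 ± 0.35.

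Origin licensing loads the MCM2-7 helicase onto DNA in G1, with CDC6 and CDT1 as loaders and geminin as inhibitor of CDT1. Of these 9 members, 4 rose in Het (Cdc6, Mcm6, Mcm2, Mcm5) and 1 in WT (Mcm6). Mcm6 lay at 0.96, 0.60 and 0.67 in WT low-fat and at 1.61, 1.55 and 1.61 in WT high-fat mice. In Het mice it lay at 0.64, 0.91 and 0.59, and at 2.29, 1.53 and 1.74. No high-fat mouse overlapped a low-fat one, and the SD of the 3 WT high-fat mice was 0.04. Mcm6 rose by 0.85 ± 0.19 in WT (1.80-fold, adjusted p = 0.032) and by 1.14 ± 0.19 in Het (2.20-fold, adjusted p = 0.0058). The WT call was lost when any 1 of the 6 WT mice was left out (highest adjusted p 0.088).

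Mcm2 was at -1.17, -1.53 and -0.86 in WT low-fat and -0.62, -0.60 and -0.49 in WT high-fat mice. In Het it was at -1.52, -1.03 and -1.72, then at -0.26, -0.66 and -0.28. The diets did not overlap in either genotype. It rose by 1.02 ± 0.21 in Het (adjusted p = 0.012), against 0.61 ± 0.21 in WT (adjusted p = 0.10). The Het call was lost without Het high-fat replicate 1 (adjusted p = 0.053). Mcm5 rose by 0.92 in Het, with 0.31 in WT.

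Cdc6 was dim. Its levels were -5.18, -6.79 and -6.52 in WT low-fat and -5.44, -5.46 and -5.32 in WT high-fat mice. Het mice gave -7.41, -5.96 and -7.07 on low-fat and -4.07, -5.05 and -4.77 on high-fat food. The fitted Het difference was 2.18 ± 0.45 (adjusted p = 0.012), and its size rests on low-fat signals near background. The spot was well above background in 0 of the 3 Het low-fat mice and in all 3 Het high-fat mice. The Het rise is therefore also given as a bound, at least 1.56-fold. This bound sets the mean of the high-fat arrays against the mean, over the low-fat arrays, of the lowest signal well above background on each, or of the probe's own signal where that is higher. WT mice on the 2 diets overlapped.

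The rest of the helicase moved less. Mcm4 differed by 0.57 in Het (adjusted p = 0.073), and Mcm3 and Mcm7 by 0.06 and 0.04. Mcm3 depends on the probe, since a dimmer second probe gave 1.0 in Het and 0.57 in WT where the brightest gave 0.06 and -0.03. The licensing factor Cdt1 was at -0.12 in Het and -0.24 in WT, and its inhibitor Gmnn at 0.51 (adjusted p = 0.16) and 0.27. The 6 genes of the MCM2-7 helicase thus gave 3 calls in Het (Mcm2, Mcm5, Mcm6), with differences from 0.04 to 1.14.

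Genes of the replication fork and of nucleotide supply did not pass in WT, in Het or over both. These 5 are Pcna (the sliding clamp of DNA polymerase), Rrm1 and Rrm2 (the subunits of ribonucleotide reductase), Tyms (thymidylate synthase) and Tk1 (thymidine kinase). Their median difference was 0.17 in Het and 0.00 in WT. Rrm1 lay at 0.52, 0.35 and 0.37 in WT low-fat mice and 0.40, 0.43 and 0.38 in WT high-fat mice. In Het it was at 0.32, 0.35 and 0.33, and at 0.61, 0.57 and 0.75. Rrm1 varied little among mice of a group, and the Het high-fat mice lay above all 9 others, with a diet difference of 0.31 ± 0.10 in Het (adjusted p = 0.061).

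Rrm2 gave -0.60, -0.61 and -1.09 in WT low-fat, -1.06, -0.66 and -0.59 in WT high-fat, -1.28, -1.49 and -0.42 in Het low-fat and -0.62, -1.77 and -1.13 in Het high-fat mice. All 4 groups overlapped. Pcna differed by 0.44 in Het (adjusted p = 0.13) and Tyms by 0.17 (adjusted p = 0.45). Tk1 lay below 0 in both genotypes, at -0.53 ± 0.31 in Het (adjusted p = 0.25) and -0.50 ± 0.31 in WT (adjusted p = 0.33). Its 3 WT high-fat mice (0.99, 0.67, 0.83) were under all 3 WT low-fat mice (1.21, 1.61, 1.18), the 1 tested member in that order in WT.

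The mitotic cyclins, CDK1 and their regulators gave the most calls, with 7 of 8 members rising in Het and 1 in WT. CDK1 is the kinase that drives entry into mitosis. Cdk1, whose probe lies at 68946079 to 68948488 of chromosome 10 on mm7 per the file headers, had levels of -3.29, -3.97 and -3.57 in WT low-fat and -2.83, -3.43 and -2.15 in WT high-fat mice. Het mice had -3.61, -4.00 and -4.00 on low-fat and -1.64, -2.26 and -2.09 on high-fat food. The Het diets were far apart, and in WT high-fat replicate 2 lay within the low-fat range. Cdk1 rose by 1.88 ± 0.30 in Het (3.67-fold, adjusted p = 0.0055), with 0.81 ± 0.30 in WT (1.75-fold, adjusted p = 0.13).

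Ccnb1 and Ccnb2 encode the B cyclins that activate CDK1, and Ccna2 encodes cyclin A2 of S phase and G2. Ccnb1 was at -5.21, -6.57 and -4.97 in WT low-fat and -4.08, -4.63 and -2.81 in WT high-fat mice. Its Het levels were -4.97, -5.99 and -6.00, then -2.80, -3.95 and -3.18. No high-fat mouse overlapped a low-fat one, but the spot was well above background in only 2 of 3 WT and 1 of 3 Het low-fat mice, and the gene passed the filter only through the high-fat groups. The fitted difference was 2.34 ± 0.54 in Het (adjusted p = 0.019) and 1.74 ± 0.54 in WT (adjusted p = 0.079), and its size rests on low-fat signals near background. The Het call was lost without Het high-fat replicate 1 or Het low-fat replicate 2 or 3 (highest adjusted p 0.078). Ccna2 rose by 1.16 and Ccnb2 by 1.04 in Het, and in WT they were at 0.62 and 0.50.

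Cdkn3 encodes a phosphatase that acts on cyclin-dependent kinases. Its levels were -2.65, -3.41 and -2.77 in WT low-fat and -1.34, -1.74 and -1.03 in WT high-fat mice. In Het they were -2.26, -2.81 and -3.16, and -0.61, -1.63 and -0.91. The diets did not overlap in either genotype. Cdkn3 rose by 1.57 ± 0.32 in WT (2.97-fold, adjusted p = 0.025) and by 1.69 ± 0.32 in Het (3.24-fold, adjusted p = 0.0091). Leaving out WT high-fat replicate 1 or 3, or any 1 of the WT low-fat mice, ended the WT call (highest adjusted p 0.082).

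Melk, a kinase of dividing cells, was at -4.83, -4.49 and -4.98 in WT low-fat and -4.58, -4.76 and -3.58 in WT high-fat mice. Het mice gave -5.66, -4.93 and -5.92, then -3.28, -3.90 and -4.34. The spot was well above background in 1 of the 3 Het low-fat mice and in all 3 of each other group. WT mice overlapped and Het mice did not, with a rise of 1.66 ± 0.37 in Het (adjusted p = 0.016) and 0.46 ± 0.37 in WT. The Het call was lost without Het high-fat replicate 1 or Het low-fat replicate 1 or 3 (highest adjusted p 0.067). Foxm1, the factor that activates many genes of G2 and mitosis, rose by 1.21 in Het (adjusted p = 0.043), with 0.63 in WT. Ccnf, which encodes cyclin F, a subunit of an SCF ubiquitin ligase, did not pass (-0.07 in Het and -0.01 in WT).

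**Figure D3:**
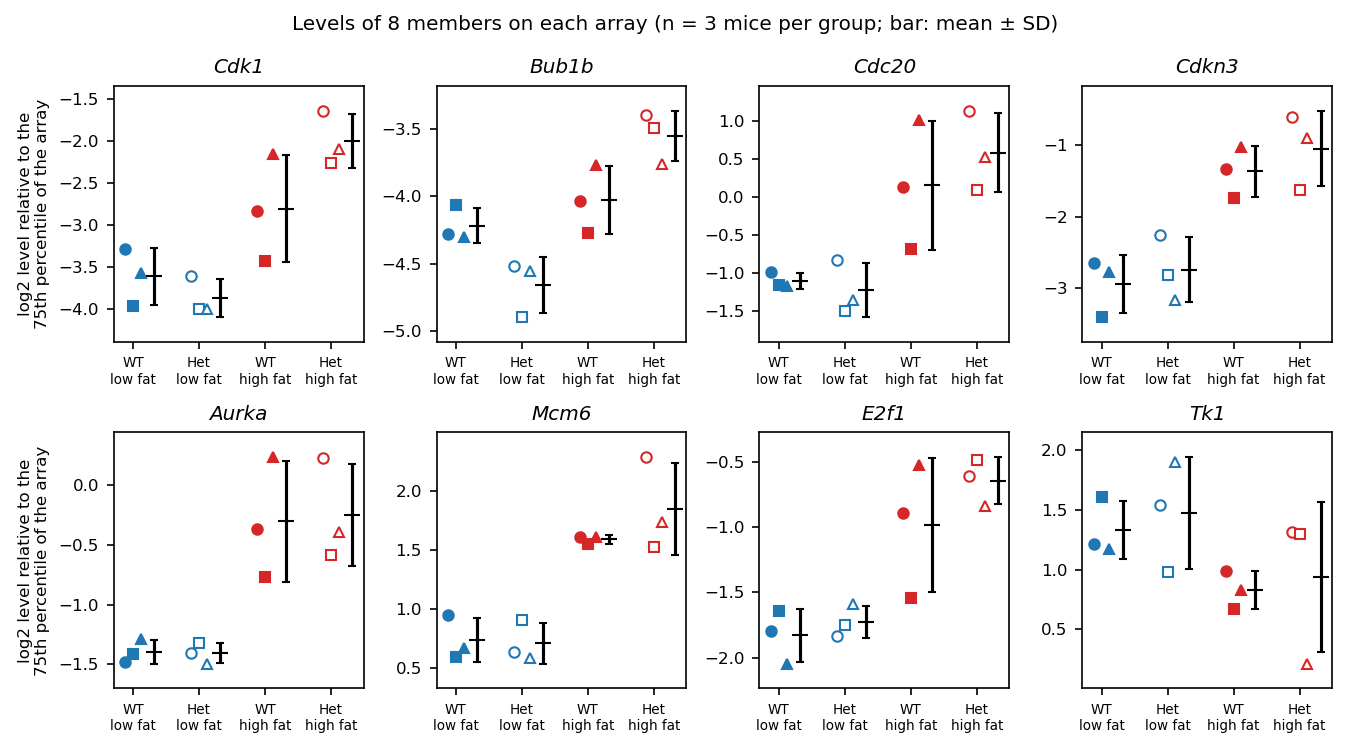
Log2 level relative to the 75th percentile of the array (vertical axis) of 8 members in each mouse, by group (horizontal axis); filled symbols are WT and open symbols Het, blue is low-fat and red high-fat, symbol shapes are replicates 1 (circle), 2 (square) and 3 (triangle), and bars are mean ± SD of 3 mice. Cdc20, Cdkn3, Aurka, Mcm6 and E2f1 have no overlap between diets in either genotype, Bub1b overlaps in WT only, and Tk1 is lower in the WT high-fat mice.

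Checkpoint kinases hold the cycle until DNA is intact or chromosomes are attached. Bub1b encodes BUBR1 of the spindle assembly checkpoint. Its levels were -4.28, -4.07 and -4.30 in WT low-fat and -4.04, -4.28 and -3.77 in WT high-fat mice. Het mice gave -4.52, -4.89 and -4.55 on low-fat and -3.40, -3.50 and -3.76 on high-fat food. WT mice overlapped between diets, while Het mice lay under them on low-fat food and above them on high-fat food. Bub1b rose by 1.10 ± 0.17 in Het (2.15-fold, adjusted p = 0.0048), with 0.19 ± 0.17 in WT (adjusted p = 0.49).

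Chek1, the kinase of the DNA damage checkpoint, was well above background in 0 of 3 Het low-fat mice and in all 3 Het high-fat mice. Its rise in Het is bounded at 1.62-fold or more. The fitted difference, which rests on low-fat signals near background, was 1.15 ± 0.32 (adjusted p = 0.036). The Het call remained in 6 of the 12 fits with 1 array left out. Bub1, a kinase of the spindle checkpoint, was well above background in 2 of 3 Het high-fat and 0 of 3 Het low-fat mice, giving at least 1.11-fold. Its fitted Het difference was 1.29 ± 0.63 (adjusted p = 0.18). Ttk, which encodes the checkpoint kinase MPS1, was the member that was not tested. Its spot was well above background in 2 of the 3 Het high-fat mice, in 1 mouse of each WT group and in 0 Het low-fat mice, which sets no bound above 1.

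Mitotic kinases and chromosome proteins followed, with 3 of 7 rising in Het, 1 in WT and 4 over both. AURKA is the kinase of centrosomes and spindle assembly. Aurka was at -1.48, -1.41 and -1.29 in WT low-fat and -0.37, -0.77 and 0.24 in WT high-fat mice. In Het mice it was at -1.40, -1.32 and -1.49, and at 0.23, -0.59 and -0.39. The 6 low-fat mice lay close together and all under the 6 high-fat mice. Aurka rose by 1.09 ± 0.25 in WT (2.13-fold, adjusted p = 0.036) and 1.16 ± 0.25 in Het (2.23-fold, adjusted p = 0.015). The WT call was lost when any 1 of 7 mice was left out (WT high-fat 1 or 3, each WT low-fat mouse, Het low-fat 1 or 2; highest adjusted p 0.10), and the Het call without Het high-fat replicate 1 (adjusted p = 0.060).

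Plk1, a kinase that acts from mitotic entry to division, rose by 1.34 in Het (adjusted p = 0.038), with 0.73 in WT. Birc5, which encodes survivin of the chromosomal passenger complex, rose by 1.08 in Het (adjusted p = 0.026), with 0.62 in WT. Mki67, the gene of the Ki-67 antigen that is used to mark cycling cells, passed over both genotypes, rising by 0.89 ± 0.25 (adjusted p = 0.023). Within a genotype it did not pass, at 0.94 in Het (adjusted p = 0.095) and 0.85 in WT (adjusted p = 0.17). Aurkb, the kinase partner of survivin, was dim, with 0 of 3 Het low-fat mice well above background, and gave at least 1.69-fold in Het. Its fitted Het difference was 1.04 ± 0.40 (adjusted p = 0.10). Cenpa, the histone H3 variant of centromeres, lay at -0.38 in Het (adjusted p = 0.16) and 0.02 in WT. Its 3 Het high-fat mice were under the 3 Het low-fat mice, the 1 tested member in that order in Het.

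Top2a, the topoisomerase that untangles sister DNA, was at -4.83, -5.40 and -4.69 in WT low-fat, -4.89, -4.88 and -4.25 in WT high-fat, -4.90, -3.67 and -5.11 in Het low-fat and -3.65, -4.39 and -3.80 in Het high-fat mice. Het low-fat replicate 2 was among the highest of all 12, and the diets overlapped. The difference was 0.61 ± 0.37 in Het (adjusted p = 0.27).

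Spindle and cytokinesis genes gave 2 calls of 7 in Het (Nusap1 and Prc1), 0 in WT and 3 over both, the third being Kif23. Nusap1, a microtubule-binding protein of the spindle, was at -3.52, -3.79 and -3.84 in WT low-fat and -3.28, -3.28 and -2.51 in WT high-fat mice. Its Het levels were -3.90, -3.89 and -4.37, then -2.10, -2.94 and -2.79. Neither genotype overlapped between diets. Nusap1 rose by 1.44 ± 0.26 in Het (2.72-fold, adjusted p = 0.0082), with 0.69 ± 0.26 in WT (adjusted p = 0.14).

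Prc1 bundles microtubules at the midzone of the dividing cell. It lay at -2.33, -2.62 and -2.39 in WT low-fat and -1.59, -1.87 and -0.95 in WT high-fat mice. Het mice gave -2.40, -2.56 and -2.89, and -0.70, -1.83 and -1.29. All high-fat mice were above all low-fat mice, with a rise of 1.34 ± 0.29 in Het (adjusted p = 0.015) and 0.98 ± 0.29 in WT (adjusted p = 0.070). The Het call was lost without Het high-fat replicate 1 (adjusted p = 0.057).

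Tpx2, which activates AURKA on the spindle, gave -4.33, -5.24 and -4.11 in WT low-fat, -3.81, -4.50 and -3.41 in WT high-fat, -4.18, -3.15 and -4.86 in Het low-fat and -3.06, -3.88 and -3.21 in Het high-fat mice. Diets overlapped in both genotypes, and Het low-fat replicate 2 stood above its group, as for Top2a. Kif23, a motor of the central spindle, rose over both genotypes by 0.51 ± 0.16 (adjusted p = 0.039, up to 0.089 with 1 array left out) and was at 0.73 in Het (adjusted p = 0.056). The motors Kif20a and Kif11 and the cytokinesis factor Ect2 did not pass, with Het differences of 0.99, 0.41 and 0.67.

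The anaphase-promoting complex ends mitosis by marking cyclin B and securin for destruction, and both members listed for it rose in Het. Cdc20 encodes its activator. Cdc20 levels were -0.98, -1.15 and -1.17 in WT low-fat and 0.14, -0.68 and 1.01 in WT high-fat mice. Het levels were -0.82, -1.49 and -1.35, then 1.13, 0.10 and 0.52. The diets did not overlap, and the high-fat mice of each genotype were more spread than the low-fat ones. The rise was 1.80 ± 0.38 in Het (3.49-fold, adjusted p = 0.013), against 1.26 ± 0.38 in WT (2.39-fold, adjusted p = 0.075). Without Het high-fat replicate 1 the Het call was lost (adjusted p = 0.059). Ube2c, the ubiquitin-conjugating enzyme of the complex, rose by 1.05 in Het (adjusted p = 0.028), with 0.60 in WT.

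Counted without a model, all 3 high-fat mice lay above all 3 low-fat mice for 26 of 45 members in Het, where 17.4% of all genes tested did, and for 15 in WT, where 12.5% did. For 11 members all 6 high-fat mice lay above all 6 low-fat mice, where 6.01% of genes did. Among the 40 members well above background on all arrays of a low-fat group the counts were 22, 13 and 10, and the 5 that passed only through a high-fat group, for which the filter favours this order, gave the rest. The 11 are Ccnb1, Ccne1, Mcm2, Mcm6, Aurka, Cdc20, E2f1, Cdkn3, Ube2c, Prc1 and Nusap1. Second probes that passed the filter, 12 probes of 11 members, had the sign of the brightest probe in 12 of 12 cases in Het and 10 of 12 in WT.

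Set side by side, the diet difference was above 0 in both genotypes for 37 of the 46 members, below 0 in both for 4 and of opposite sign for 5. It was larger in Het for 41. All members were read on the same arrays, so such counts here and below do not tally independent genes. The 3 members called in WT were also called in Het. These are each comparison's own values, and whether the genotypes differ in their response is the test of the interaction. That test passed for 0 of 45 members and 0% of all genes in limma, with 5 members at an unadjusted p under 0.05. The members of lowest p were Bub1b (0.91 ± 0.23, adjusted p = 0.94), Cdk1 (1.07 ± 0.43) and Melk (1.20 ± 0.52), all with the larger rise in Het. Over all 46 the median interaction was 0.42, against 0.03 over all genes tested. With the slide as a fixed block it was -0.08, with Bub1b at 0.52 and Cdk1 at 0.15. That fit compares genotypes only within slide 2 (1 WT and 3 Het high-fat mice) and slide 3 (3 WT and 1 Het low-fat mouse).

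**Figure D4:**
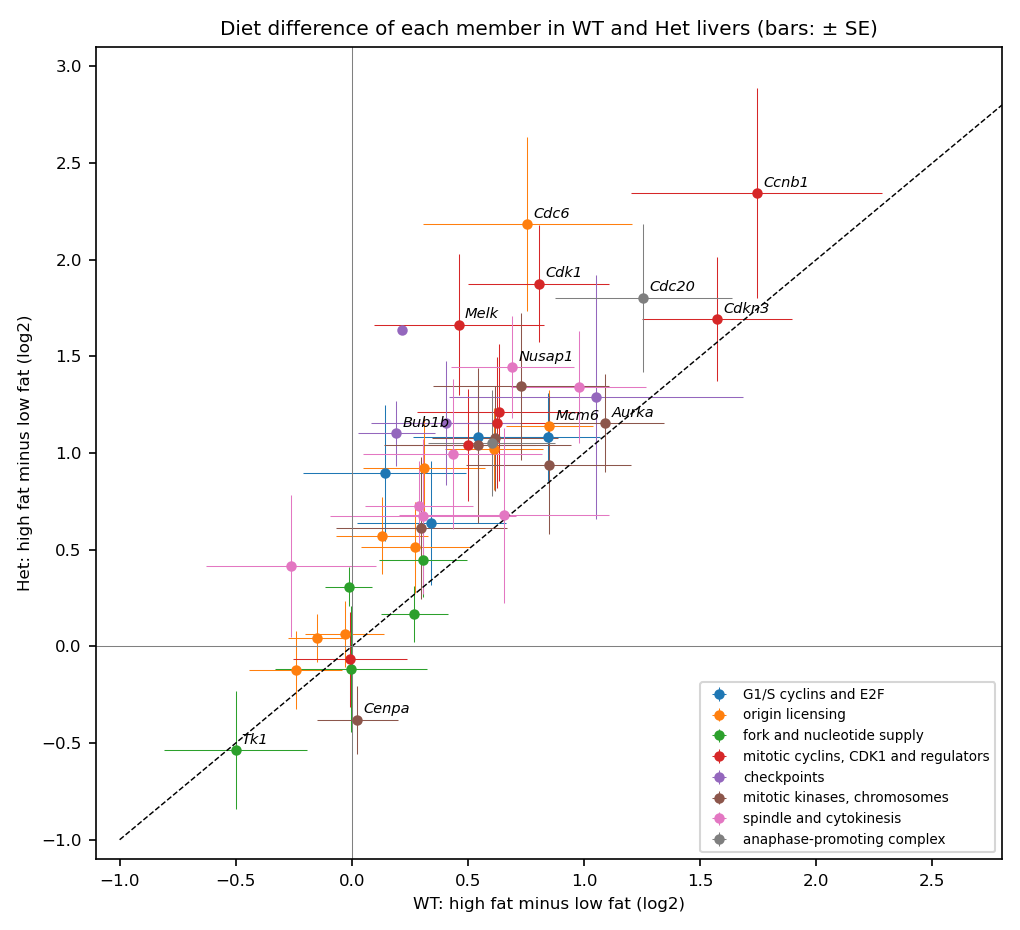
Log2 difference between high-fat and low-fat food in WT (horizontal axis) and in Het livers (vertical axis) for each of the 46 members, coloured by role, with bars of ± 1 SE; Ttk, not tested, has no bars, and the dashed line marks equal differences. Points lie above the line for 41 members, Cdk1, Cdc20 and Cdkn3 reach 1.88, 1.80 and 1.69 in Het, and Tk1 lies below 0 on both axes. Aurkb, Bub1, Cdc6, Chek1 and Ttk were well above background on 0 Het low-fat arrays and Ccnb1 and Melk on 1, so the heights of these points rest on signals near background.

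Het and WT mice were also compared on each diet, and limma called 0 of 45 members and 0% of all genes on high-fat food, on low-fat food and over both. At an unadjusted p under 0.05 there were 3 members on high-fat food, 1 on low-fat food and 0 over both. On high-fat food 40 of the 46 members were higher in Het and the median was 0.33, against 0.03 over all genes tested. Lowest in p were Bub1b (0.47 ± 0.17, adjusted p = 0.48), Cdk1 (0.81 ± 0.30, adjusted p = 0.50) and Rrm1 (0.24 ± 0.10, adjusted p = 0.55). The 3 Het mice lay above the 3 WT mice for 7 of 45 members, where 9.15% of genes did, and under them for 1, where 5.79% did. On slide 2, which held 1 WT and 3 Het high-fat mice, the median was -0.02 and 22 of 46 members were higher in Het, with Cdk1 at 0.16 and Bub1b at 0.22. WT high-fat replicates 1 and 2, which lay lower, were both on slide 1, so slide and mouse cannot be told apart for them.

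On low-fat food 38 of the 46 members were lower in Het and the median was -0.08, against 0.00 over all genes tested. Bub1b was lower in Het by every mouse (-0.44 ± 0.17, adjusted p = 1.0), and Melk and Cdc6 came next in p. Melk was fitted at -0.73 ± 0.37 with 1 of 3 Het mice well above background, and Cdc6, with 1 of 3 WT and 0 of 3 Het mice so, gave no bound above 1. Het mice lay under all WT mice for 3 members, Bub1b, Rrm1 and Nusap1, where 2.40% of genes did, and above them for 0, where 1.95% did. On slide 3, with 3 WT mice and 1 Het mouse, the median was 0.01, with Bub1b at -0.30. Over both diets the median was 0.10, and Top2a (0.57 ± 0.26), Tpx2 (0.51 ± 0.32) and Rrm2 (-0.35 ± 0.23) had the lowest p, each with an adjusted p of 1.0.

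Other genes of the cycle were taken from a list of 117. Of the 113 tested, 20 rose and 6 fell in Het and 5 rose and 2 fell in WT, with medians over all 117 of 0.19 and 0.12. Over all genes tested 7.60% rose and 8.25% fell in Het and 2.72% rose and 3.16% fell in WT, the shares against which these counts and those of the lists below stand. Of 29 other mitosis genes tested, 12 rose and 0 fell in Het, and 1 rose in WT. Among them were Incenp of the chromosomal passenger complex (0.77, adjusted p = 0.0079), Nuf2 of the kinetochore (1.32, adjusted p = 0.012), Espl1, the separase that parts sister chromatids (1.50, adjusted p = 0.029), and Aspm of the spindle poles (1.34, adjusted p = 0.017). Cenpe, a kinetochore motor, rose in both genotypes, by 1.30 in Het (adjusted p = 0.013) and 1.14 in WT (adjusted p = 0.039).

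Of 35 other replication genes tested, 6 rose and 2 fell in Het and 2 rose in WT. Gins2, a subunit of the replicative helicase, was at -3.18, -3.44 and -3.46 in WT low-fat, -2.03, -2.42 and -1.68 in WT high-fat, -3.12, -2.80 and -3.34 in Het low-fat and -1.26, -1.73 and -1.79 in Het high-fat mice. No high-fat mouse overlapped a low-fat one, and it rose by 1.31 ± 0.22 in WT (adjusted p = 0.015) and 1.50 ± 0.22 in Het (adjusted p = 0.0044). Uhrf1, which brings the methyltransferase DNMT1 to new DNA, rose by 1.66 in Het (adjusted p = 0.0061), and Dnmt1 by 0.70. Rfc5 of the clamp loader fell by 0.58 in Het.

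Of 6 CDK inhibitors tested, 2 rose in WT, and 0 rose and 1 fell in Het. Cdkn1a encodes p21, which blocks cyclin-dependent kinases. It lay at -2.62, -2.76 and -1.53 in WT low-fat and -0.47, -0.86 and 0.12 in WT high-fat mice, and at -1.65, -1.52 and -2.61, then -0.03, -1.40 and -0.58 in Het mice. Diets did not overlap in either genotype, with a rise of 1.90 ± 0.44 in WT (adjusted p = 0.037) and 1.26 ± 0.44 in Het (adjusted p = 0.078). Cdkn2c, the gene of p18, rose by 1.15 in WT (adjusted p = 0.040), with 0.84 in Het (adjusted p = 0.061). Cdkn1b, that of p27, fell by 0.48 in Het (adjusted p = 0.036), with -0.39 in WT (adjusted p = 0.10). Over both genotypes 4 of the 6 inhibitors rose and 1 fell, where 13.4% of all genes rose and 16.7% fell. Of 18 pocket protein, E2F and MuvB genes, E2f4, whose product serves in repressor complexes of quiescent cells, fell in both genotypes, by 0.44 in WT (adjusted p = 0.046) and 0.83 in Het (adjusted p = 0.0041). Tfdp2 fell by 0.74 in Het (adjusted p = 0.042), with nearly the same difference in WT (-0.73, adjusted p = 0.069). E2f7 rose by 0.56 in Het (adjusted p = 0.041), with -0.12 in WT. The other cyclin and CDK genes gave 1 call in 17, Ccnd2, which rose by 0.68 in Het (adjusted p = 0.012).

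Markers of other liver cells moved with diet on the same arrays. Of 12 macrophage genes, 4 rose in Het (Gpnmb, Trem2, Cd14, Cd68) and 2 in WT, and their summed level ran from 94.3 to 177 on low-fat and from 110 to 178 on high-fat arrays. Of 8 stellate cell genes, 4 rose in Het and 3 in WT, and the sum was 48.8 to 67.9 on low-fat and 69.1 to 99.6 on high-fat arrays. Among 8 genes of bile duct and progenitor cells, 3 rose in Het (Spp1, Tspan8, Prom1) and 0 in WT, with sums of 6.97 to 9.88 and of 13.3 to 70.8. Spp1 and Tspan8 were highest in Het high-fat replicate 1 (6.06 and 0.15), the mouse that was also the highest for 29 members. The sums add linear levels, so Spp1 alone makes up most of the sum on that array. Of 7 hepatocyte genes, 3 fell in Het and 1 in WT, with sums of 858 to 1262 and of 849 to 1226. Endothelial genes gave 0 rises and 2 falls of 6 in Het and 1 of each in WT, with sums of 15.1 to 17.4 and of 13.9 to 16.7.

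The 9 T and NK cell genes gave 0 rises and 1 fall, in Het, with sums of 1.12 to 2.23 on low-fat and 1.04 to 1.64 on high-fat arrays. B cell, neutrophil and red cell precursor genes gave 0 calls of 5, 4 and 4 within either genotype. Their sums ran from 1.06 to 5.18 and 1.12 to 3.48, from 0.93 to 2.77 and 1.20 to 9.34, and from 48.9 to 61.5 and 42.7 to 94.6. Over both genotypes, the comparison with 24 members called, 2 of 4 neutrophil genes rose, with a median of 1.09 over 5 measured, and 1 red cell precursor gene rose and 1 fell. In that comparison 6 of 8 stellate cell, 5 of 8 bile duct and progenitor and 4 of 12 macrophage genes rose, 3 of 7 hepatocyte and 3 of 9 T and NK cell genes fell, and of 6 endothelial genes 1 rose and 2 fell. Elane, a defining marker of neutrophils, was well above background on no array. Which cell types carried the cell cycle transcripts, and the part of these markers in the result, was not tested.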

How the data were processed

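Total RNA of 12 mouse livers was labelled with Cy3 and hybridised to 1-colour arrays, 1 per mouse, per the labels. The authors deposited scanner tables of processed intensity on a linear scale, from which local background had been subtracted and a trend across the array removed, per the file headers. The software was Agilent Feature Extraction, version 9.5 by the submitters' processing notes, and it also set the spot flags used here. A series-wide table that they deposited held identical intensity values, uncentred, with medians from 78.3 to 163.4, and so was no separate alternative.

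The log2 of each processed intensity was taken and that of the array's 75th percentile over non-control spots (975.1 to 2006.4 intensity units) subtracted. Outlier spots (1344 over all arrays) and control spots were left out, and no spot of a member was saturated. Of 41174 probes, 25297 were kept, those with every array of 1 or more groups well above background and 2 or more values in each group. Probes were named by accession (22951), current symbol (6659) or older symbol (3109) through a RefSeq table, and 8455 kept the design's name. The brightest probe stood for a gene, and 21 members had several. Probe positions are those of the array design, mm7.

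limma 3.58.1 in R 4.3.3 fitted the 4 group means with moderated two-sided tests (8 residual and 2.80 prior degrees of freedom) and Benjamini-Hochberg adjustment over 17043 genes at 0.05. The labels call the 3 mice of a group biological replicates. Sirt1 was tested by exact permutation. A script with the same steps was tested on simulated data. The alternatives were quantile and median scaling, normexp background correction, removal of array trends on GC content and brightness, no filter, the mean over probes, replicate and slide blocks, only the groups compared, and leaving out each array. Slide was added as a block for the interaction, and the lower bound of dim members for diet in Het, after the data were seen. Groups sharing a replicate number did not pair. Over 18 same-number pairs, correlations of deviations from group means ran from -0.46 to 0.45, with 3 over 0.1.

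The members and all gene lists were chosen with earlier results of these data known, so their counts are no independent support. Values on every array are given for the 10 members of lowest p for diet in each genotype, the 3 of lowest p in each genotype comparison and the interaction, and members called where 5 or fewer were. Other pathway genes were named after their values were seen. Promoter windows are from RefSeq on GRCm38.p6. Cell type genes without a probe found by name were Serpina1a, Trac, Ly6g and Hbb-b1. Not every gene of these lists is reported here by name.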

Additional observations from a re-analysis of the deposited data

How the results depend on the processing

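Members called with diet in WT (3) came to 6 with scaling to the median, 6 with normexp, 0 with no filter on dim probes and 8 with slide as a random block. The count in Het (22) came to 13 with no filter. That over both genotypes (24) came to 37 with slide as a random block, while its median (0.77) was 0.49 with normexp. The random block used an estimated correlation within slides of -0.18, which is negative. With slide as a fixed block the median for genotype on high-fat food (0.33) was -0.020 and that of the interaction (0.42) -0.082. The fixed block compares genotypes only within slides 2 and 3. Slide 2 held 1 WT and 3 Het high-fat mice, with a median of -0.020 there, and slide 3 held 3 WT and 1 Het low-fat mouse. With no filter more genes share both the adjustment and the estimate of spread. The cause was not tested in any of these cases. Leaving out 1 array at a time, which leaves 2 mice in a group, gave 0 to 4 calls in WT, 5 to 24 in Het and 20 to 27 over both, and 0 in every genotype comparison and the interaction. The medians then ran from 0.30 to 0.64 in WT, 0.73 to 1.16 in Het, 0.64 to 0.87 over both and 0.18 to 0.50 for genotype on high-fat food. They ran from -0.26 to 0.00 for genotype on low-fat food, 0.04 to 0.17 over both diets and 0.26 to 0.64 for the interaction. With replicate number as a block the calls were 3 in WT, 20 in Het and 23 over both, and 0 elsewhere. The numbers are no pairing, as 3 of 12 arrays correlated best with their own number. With dim members at their lower bound the Het median was 0.83. Of 678 values of 32 named results under the alternatives, 632 kept direction and side of the threshold, 28 fell short of it, 18 newly passed it and 0 changed sign. The 678 include the genotype comparisons and the interaction, where 0 members passed under any alternative. They also include fits that left out an array outside the comparison. All 28 losses were of diet results, so the 632 do not measure how firm the diet calls are.

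Precision was limited by 3 mice per group and, for Aurkb, Bub1, Ccnb1, Cdc6, Chek1, Melk and Ttk, by signal near background. Diet cannot be told apart from scan day. A difference that missed the threshold is not shown to be absent.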

Other observations

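Liver growth signals, 9 genes listed with the cell cycle genes, gave 0 rises among 8 tested. Egfr, the receptor for EGF, was at 5.17, 5.24 and 5.04 in WT low-fat and 3.82, 3.45 and 4.22 in WT high-fat mice, and fell by 1.32 ± 0.33 in WT (limma, adjusted p = 0.042). In Het it was at 4.63, 4.78 and 4.68, then 3.34, 3.37 and 4.73, a difference of -0.89 ± 0.33 (adjusted p = 0.086), with Het high-fat replicate 3 within the low-fat range. Met, the receptor for HGF, fell by 0.71 ± 0.16 in Het (adjusted p = 0.016), with -0.48 ± 0.16 in WT (adjusted p = 0.091). Hgf itself was at 0.03 in Het and 0.00 in WT, and Myc at -0.65 and 0.46, none of them past the threshold.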
